A study of Saccharomyces cerevisiae with 4 samples.

Results

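The genes of sulfate assimilation and the methionine cycle were followed in an H3 mutant of budding yeast and in a wild-type strain. In the mutant, glycine replaces 8 lysines of histone H3 (residues 4, 9, 14, 18, 23, 27, 36 and 79). The 35 genes were chosen by name, and each had at least 1 probe set of its own among the 5656 genes that the array measured with a probe set paired with 1 gene. They cover sulfate uptake and reduction, the synthesis of homocysteine, methionine and cysteine, the S-adenosylmethionine (SAM) cycle and the regulators that act with the activator Met4. Each strain was measured on 2 one-colour arrays (n = 2 each) of total RNA. Cultures grew in YPD, a rich medium, and were in mid-log phase at harvest (OD600 between 0.5 and 0.7). The labels give no mating type, ploidy or further genotype of either strain, and do not state if replicates came from separate cultures. The p-values therefore measure only the spread between these 4 arrays, and the number of arrays limits the precision.

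Yeast takes up sulfate, activates it with ATP and reduces it to sulfide, which is joined to a carbon chain derived from aspartate to form homocysteine. Homocysteine is methylated to methionine, and methionine is activated to SAM, the methyl donor of most methylation reactions, histone lysine methylation included. The activator Met4 drives most of these genes through the DNA-binding partners Cbf1, Met31 and Met32, and the ubiquitin ligase subunit Met30 restrains Met4 when sulfur amino acids are plentiful, as they are in rich medium.

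Values are the authors' array signals on a linear scale. Fold changes are log2 differences of signal + 16, mutant over wild type, an offset that understates the change of dim genes. A gene was tested where the mean log2 signal of its brightest probe set reached that of a signal of 25.1. It was called at an adjusted p under 0.05 in limma's test over all 4476 tested genes. Across all tested genes 14.3% were called higher in the mutant and 15.5% lower, 29.8% in all. The arrays correlated at r = 0.989 within the mutant, 0.991 within wild type and 0.942 to 0.949 between the strains, across genes, which are not independent replicates. In a stretch of 1100 consecutive probe set numbers that starts at 5600, the 2 mutant arrays disagreed more than elsewhere, with an SD of their log2 difference of 0.351 against 0.164 (0.168 against 0.191 for the wild-type arrays). The probe sets of 6 members, HOM3, HOM2, MET6, SAM2, SAH1 and MET32, lie in that stretch. The added hybridization controls had geometric mean signals of 174 and 201 on the mutant arrays, against 138 and 141 on the wild-type arrays. Scaled to them, all tested genes had a median log2 fold change of -0.39, while that under the authors' scaling was -0.03. Under that scaling 4.58% of tested genes were called higher and 55.6% lower, so every direction below is relative to the common array level.

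The strains also differed in mating-type transcripts. The 6 a-specific marker genes (MFA1, MFA2, STE2, STE6, BAR1 and AGA2) summed to signals of 112.8 and 109.2 in the mutant, against 2271.8 and 2553.4 in wild type, and all 6 fell. The 4 alpha-specific markers summed to 155.8 and 152.2 in the mutant and 90.3 and 85.1 in wild type, and none was at 0. SAG1 was the 1 of them bright enough to test and carried the difference, at 115.8 and 106.7 in the mutant against 47.5 and 38.6 in wild type. The other 3 were dim in both strains, with log2 fold changes of -0.06 for MF(ALPHA)1, 0.05 for MF(ALPHA)2 and -0.07 for STE3. The part of this difference in the results below was not tested. With 1 strain per group, such strain differences and the H3 substitutions cannot be told apart. MET17, itself a common auxotrophic marker of laboratory strains, was bright on all 4 arrays.

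Of the 35 genes, 29 were tested, and 9 of these rose in the mutant, 8 fell and 12 did not pass. Across all tested genes the shares were 14.3% and 15.5%. Without a filter, so that all 35 members entered, 13 rose and 7 fell, against 14.8% and 13.1% of 5656 genes (27.9% in all). The list did not move one way, since the median log2 fold change of its tested members was -0.05, against -0.03 over all tested genes. The genes that rose lay mainly between sulfate and homocysteine, with MET3, MET5, MET10, MET1 and MET17 the 5 called higher in every fit without 1 array. Those that fell included both SAM synthetase genes, the methionine synthase gene and 2 DNA-binding partners of Met4. SAM2 was the 1 called lower in all 4 of those fits. Without any filter on signal, both mutant arrays lay above both wild-type arrays for 17 of the 35 members, against 33.0% of all genes. They lay below for 13, against 33.2%, and the strains overlapped for 5, against 1915 of all 5656 genes.

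**Figure D1:**
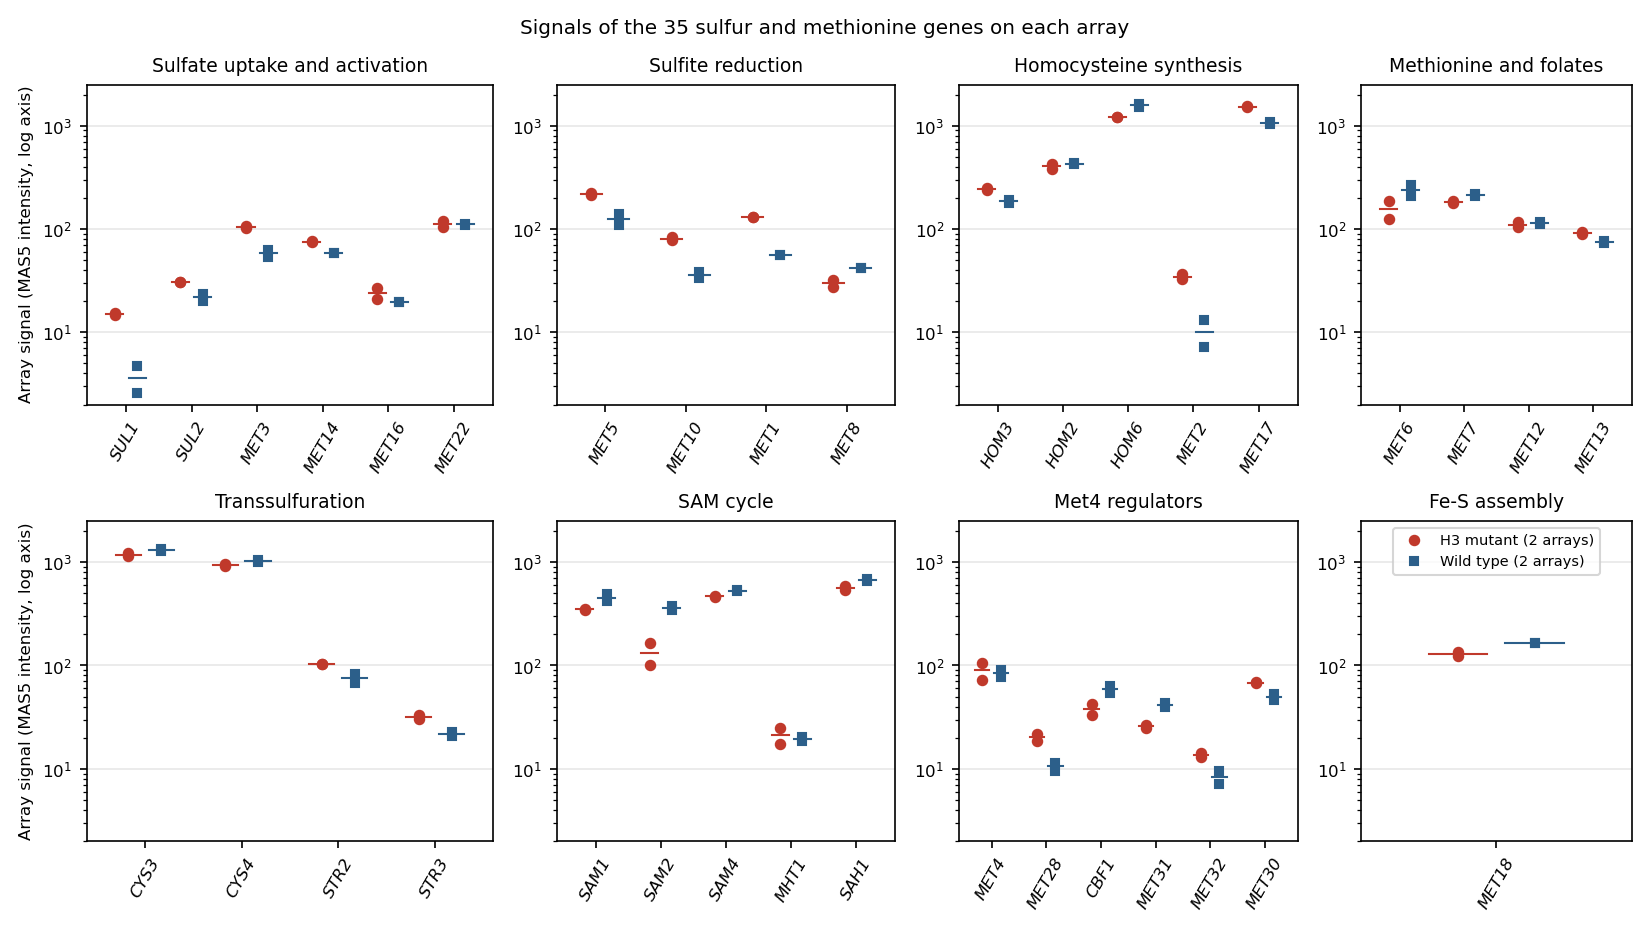
Array signal (log axis) of each of the 35 genes, in panels by pathway step, with the 2 mutant arrays to the left (circles), the 2 wild-type arrays to the right (squares) and lines at the means. MET1 sits at 131.3 and 131.1 in the mutant against 55.7 and 56.6 in wild type, and SAM2 at 100.7 and 163.4 against 343.4 and 372.5.

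Sulfate enters through the permeases Sul1 and Sul2. SUL1 (YBR294W) gave signals of 15.5 and 14.6 in the mutant, against 4.7 and 2.6 in wild type, too dim to be tested in the main fit. Both mutant arrays lay above both wild-type arrays. In a fit with no filter on signal, SUL1 rose by 0.66 ± 0.0859 (SE, limma adjusted p = 0.00113). This size depends on the offset, with 1.82 at an offset of 1 and 0.22 at an offset of 64. SUL2 gave 30.6 and 30.5 in the mutant and 23.6 and 20.1 in wild type, without overlap, but did not pass (log2 fold change 0.30, 95% interval 0.05 to 0.55, limma adjusted p = 0.0644).

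Activation of sulfate starts with ATP sulfurylase. Its gene MET3 (YJR010W) gave 106.5 and 101.3 in the mutant, against 62.8 and 53.2 in wild type. Every mutant value was above every wild-type value, and MET3 rose by 0.70 ± 0.111 on the log2 scale (SE, limma adjusted p = 0.00199). The call held without each array in turn (adjusted p from 0.00862 to 0.0203). Scaling to the hybridization controls ended it, with a log2 fold change of 0.35 and an adjusted p of 0.0532. MET14, the adenylylsulfate kinase gene of the next step, gave 74.7 and 76.0 in the mutant and 58.8 on both wild-type arrays. The groups did not overlap, yet the gene did not pass (0.29, 95% interval 0.06 to 0.52, limma adjusted p = 0.0608). MET16, the gene of the reductase that turns activated sulfate (PAPS) into sulfite, was below the limit for testing, at 26.7 and 21.1 in the mutant and 19.7 and 19.6 in wild type. MET22, whose product clears the nucleotide by-product of that reduction, gave 120.3 and 103.4 in the mutant and 112.3 and 110.4 in wild type. The mutant arrays of MET22 enclosed the wild-type ones, and its interval was -0.24 to 0.24.

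Sulfite reductase and its siroheme cofactor gave a gain in 3 of their 4 genes, against 14.3% of all tested genes called higher. MET1 (YKR069W), which encodes the methyltransferase that commits a porphyrin precursor to siroheme, gave 131.3 and 131.1 in the mutant against 55.7 and 56.6 in wild type. Its mean signal was 2.34 times that of wild type. MET1 rose by 1.03 ± 0.0994 (SE, limma adjusted p = 0.000129), the largest gain of the 29 tested members and rank 86 from the top of the 4476 tested genes. MET10 (YFR030W), the gene of the reductase's alpha subunit, gave 84.3 and 77.4 in the mutant, against 38.7 and 33.6 in wild type. MET10 rose by 0.89 ± 0.112 (SE, limma adjusted p = 0.000563). The beta subunit gene MET5 (YJR137C) gave 211.5 and 223.0 in the mutant and 140.6 and 108.5 in wild type, and rose by 0.74 ± 0.121 (SE, limma adjusted p = 0.00225). Both subunit genes and MET1 thus rose without overlap between the strains. For 33.0% of all genes both mutant arrays lay above both wild-type arrays. Of the 29 tested members, these 3 were called higher also under scaling to the hybridization controls, at 0.68 for MET1, 0.57 for MET10 and 0.36 for MET5. With no filter, SUL1 (0.52) and MET2 (0.74) were called higher under that scaling as well.

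MET8, whose product completes siroheme by oxidation and iron insertion, went the other way from MET1. It gave 32.0 and 27.4 in the mutant, against 41.5 on both wild-type arrays, and fell by 0.33 on the log2 scale (SE 0.110, limma adjusted p = 0.0479). None of the 4 fits without 1 array called it (adjusted p from 0.0772 to 0.235). The call was also lost with an offset of 1, with no filter and with every probe set tested on its own. Its signal is near the limit for testing.

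The carbon chain of homocysteine is built from aspartate, and its genes were split. HOM3 (YER052C), the aspartate kinase gene at the head of the branch shared by methionine and threonine, gave 250.2 and 236.4 in the mutant and 190.3 and 179.5 in wild type. HOM3 rose by 0.37 ± 0.0922 (SE, limma adjusted p = 0.0175), without overlap. The call was lost without mutant replicate 1 or wild-type replicate 2 (adjusted p from 0.0457 to 0.101 over the 4 fits), and the value was -0.02 under scaling to the hybridization controls. HOM2, the aspartate semialdehyde dehydrogenase gene, gave 423.0 and 384.6 in the mutant and 421.8 and 435.8 in wild type, with overlap and an interval of -0.30 to 0.13. HOM6 (YJR139C), the homoserine dehydrogenase gene, gave 1222.6 and 1224.6 in the mutant against 1524.2 and 1611.6 in wild type. It fell by 0.35 (SE 0.0995, limma adjusted p = 0.0272), a call that none of the fits without 1 array kept (adjusted p from 0.0544 to 0.145).

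The 2 enzymes that turn homoserine into homocysteine had higher signals in the mutant. MET2, the homoserine acetyltransferase gene, was below the limit for testing, at 36.5 and 32.7 in the mutant against 7.2 and 13.1 in wild type. With no filter MET2 rose by 0.96 ± 0.125 (SE, limma adjusted p = 0.00116), and the call held without each array in turn (adjusted p from 0.00738 to 0.0253). At an offset of 1 its value was 1.73, and at an offset of 64 it was 0.41. MET17 (YLR303W), the gene of the sulfhydrylase that joins sulfide to the chain, gave 1548.4 and 1506.7 in the mutant, against 1026.0 and 1091.0 in wild type. MET17 rose by 0.52 ± 0.0991 (SE, limma adjusted p = 0.00476) without overlap, and by 0.11 under scaling to the hybridization controls, where it did not pass (adjusted p = 0.532).

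In the step from homocysteine to methionine and its folate supply, 1 of 4 genes passed, and it was lower. By comparison, 29.8% of all tested genes were called, and 15.5% were called lower. MET6 (YER091C), the methionine synthase gene, gave 125.3 and 186.1 in the mutant and 208.3 and 263.9 in wild type. The strains did not overlap but each spread widely, and MET6 fell by 0.57 (SE 0.169, limma adjusted p = 0.0330). The call held with mutant replicate 2 left out, where it was -0.83, and was lost without any of the other 3 arrays (adjusted p up to 0.213, -0.31 without mutant replicate 1). Quantile normalization and a robust prior also ended it. MET6 lies in the stretch where the mutant arrays disagree. Of the folate genes that supply its methyl group, none passed. MET13, the major methylenetetrahydrofolate reductase gene, gave 93.7 and 89.7 in the mutant against 72.5 and 77.3 in wild type (0.24, limma adjusted p = 0.0991). Its isozyme gene MET12 gave -0.05 (interval -0.28 to 0.18), and MET7, which encodes folylpolyglutamate synthetase, gave -0.20 (interval -0.41 to 0.01).

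Transsulfuration links homocysteine and cysteine in both directions. Of its 4 genes, the 2 that lead from cysteine back to homocysteine passed, both higher in the mutant. Among all tested genes 14.3% were called higher and 15.5% lower. STR2, the cystathionine gamma-synthase gene, gave 103.0 and 103.5 in the mutant and 83.0 and 67.4 in wild type, and rose by 0.39 ± 0.115 (SE, limma adjusted p = 0.0314). STR3, the cystathionine beta-lyase gene, gave 30.4 and 32.8 in the mutant against 21.0 and 22.7 in wild type, and rose by 0.33 ± 0.106 (SE, limma adjusted p = 0.0440). STR3, like SUL2, reached the limit for testing through its mutant arrays, with wild-type signals below it. Both calls are weak, since that of STR3 was lost in all 4 fits without 1 array (adjusted p from 0.0895 to 0.156). That of STR2 was lost without mutant replicate 1, mutant replicate 2 or wild-type replicate 2 (adjusted p up to 0.120). Scaling to the hybridization controls gave 0.04 for STR2 and 0.07 for STR3, neither called.

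The genes of the opposite direction, toward cysteine, did not pass. CYS3, the cystathionine gamma-lyase gene, gave 1138.6 and 1230.5 in the mutant and 1334.9 and 1274.4 in wild type (interval -0.37 to 0.09). CYS4, the cystathionine beta-synthase gene, gave 967.8 and 921.4 in the mutant and 1037.8 and 1008.5 in wild type (interval -0.33 to 0.10).

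The largest change of the 29 tested members was the loss of SAM2 (YDR502C), which encodes 1 of the 2 SAM synthetases. SAM2 gave 100.7 and 163.4 in the mutant, against 343.4 and 372.5 in wild type, a ratio of means of 0.369. SAM2 fell by 1.37 on the log2 scale (SE 0.173, limma adjusted p = 0.000590), rank 17 from the bottom of the 4476 tested genes. Both mutant arrays were far below both wild-type arrays, although they differed from each other. Its value was -1.06 without mutant replicate 1 and -1.68 without mutant replicate 2, and the call held in all 4 such fits. SAM2 lies in the stretch where the mutant arrays disagree.

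The other SAM synthetase gene, SAM1 (YLR180W), gave 355.2 and 345.1 in the mutant and 490.6 and 417.7 in wild type. SAM1 fell by 0.36 (SE 0.102, limma adjusted p = 0.0287). This call was lost without either mutant replicate or wild-type replicate 1 (adjusted p up to 0.131) and with quantile normalization. A brighter probe set paired with both genes gave 1659.5 and 1690.8 in the mutant and 1929.6 and 2154.0 in wild type. The log2 fold change of this shared probe set was -0.28 (limma adjusted p = 0.135 over all probe sets), closer to the value of SAM1 than to that of SAM2. The 2 genes are close paralogs, so their probe sets may share signal.

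The rest of the SAM cycle did not pass. SAH1, which encodes the hydrolase that clears S-adenosylhomocysteine, gave 583.2 and 540.8 in the mutant against 655.5 and 684.0 in wild type (-0.25, interval -0.46 to -0.04, limma adjusted p = 0.0735). SAM4, a homocysteine methyltransferase gene that recycles SAM, gave -0.17 (interval -0.37 to 0.03). A second SAM4 probe set, shared with the paralogous open reading frame YMR321C, gave 770.1 and 753.4 in the mutant and 721.7 and 762.3 in wild type. MHT1, its counterpart for S-methylmethionine, was below the limit for testing, at 24.7 and 17.4 in the mutant and 18.7 and 20.4 in wild type.

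Among the regulators the signals of the activator gene itself overlapped, while its partners differed. MET4 gave 106.7 and 72.4 in the mutant and 90.3 and 77.7 in wild type, with an interval of -0.29 to 0.41. CBF1, which encodes the helix-loop-helix factor that binds with Met4 and also sits at centromeres, gave 42.6 and 33.4 in the mutant, against 63.3 and 54.6 in wild type. CBF1 fell by 0.48 (SE 0.126, limma adjusted p = 0.0211). MET31, 1 of a pair of zinc finger genes, gave 24.8 and 26.6 in the mutant against 43.0 and 39.6 in wild type, and fell by 0.46 (SE 0.107, limma adjusted p = 0.0129). Neither gene's strains overlapped, while both mutant arrays lay below both wild-type arrays for 33.2% of all genes. The mutant signals of MET31 lie close to the limit for testing (25.1), with mutant replicate 1 below it. The CBF1 call was lost without mutant replicate 2 or either wild-type replicate (adjusted p up to 0.145), and the MET31 call without mutant replicate 1 or wild-type replicate 1 (adjusted p up to 0.0724).

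MET32, the paralog of MET31, had higher signals in the mutant, at 14.3 and 13.0 against 7.1 and 9.6 in wild type, below the limit for testing. With no filter it rose by 0.29 ± 0.0894 (SE, limma adjusted p = 0.0453), a call absent from all 4 fits without 1 array (adjusted p from 0.0741 to 0.214). The call was lost as well with an offset of 1, median centring, quantile normalization, scaling to the hybridization controls (0.12), no intensity trend and every probe set on its own. Under scaling to the hybridization controls MET28 (0.24, with no filter) and MET30 (0.03), described next, were not called either. MET28, the gene of a leucine zipper cofactor of Met4, gave 18.6 and 21.6 in the mutant and 9.6 and 11.5 in wild type, also below the limit. With no filter MET28 rose by 0.44 ± 0.0948 (SE, limma adjusted p = 0.0110), a call that held in 1 of the 4 fits with an array left out, the one without mutant replicate 1 (adjusted p up to 0.0910). MET30, the ubiquitin ligase subunit gene, gave 68.5 and 67.4 in the mutant against 46.1 and 52.8 in wild type. MET30 rose by 0.36 ± 0.109 (SE, limma adjusted p = 0.0354), a call that held in 1 of the 4 such fits, the one without wild-type replicate 2 (adjusted p up to 0.148).

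Of the 6 members below the limit for testing, 5 (SUL1, MET2, MET16, MET28 and MET32) had both mutant arrays above both wild-type arrays. The same held for 39.9% of all 1180 genes below that limit, whose median log2 fold change was 0.04, against 0.36 for these 6. Values this low lie near the arrays' floor, and no detection call was used here.

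MET18 stands apart in function, since its product helps to insert iron-sulfur clusters into proteins, sulfite reductase among them. Its brightest probe set gave 135.9 and 123.6 in the mutant and 165.3 and 166.1 in wild type, and fell by 0.32 (SE 0.0964, limma adjusted p = 0.0350). The call was lost in all 4 fits without 1 array (adjusted p from 0.0707 to 0.194) and with quantile normalization. Its design type may also detect related transcripts. The other 4 probe sets of MET18 gave -0.10, -0.05, 0.00 and 0.07, so a fall of MET18 is uncertain.

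**Figure D2:**
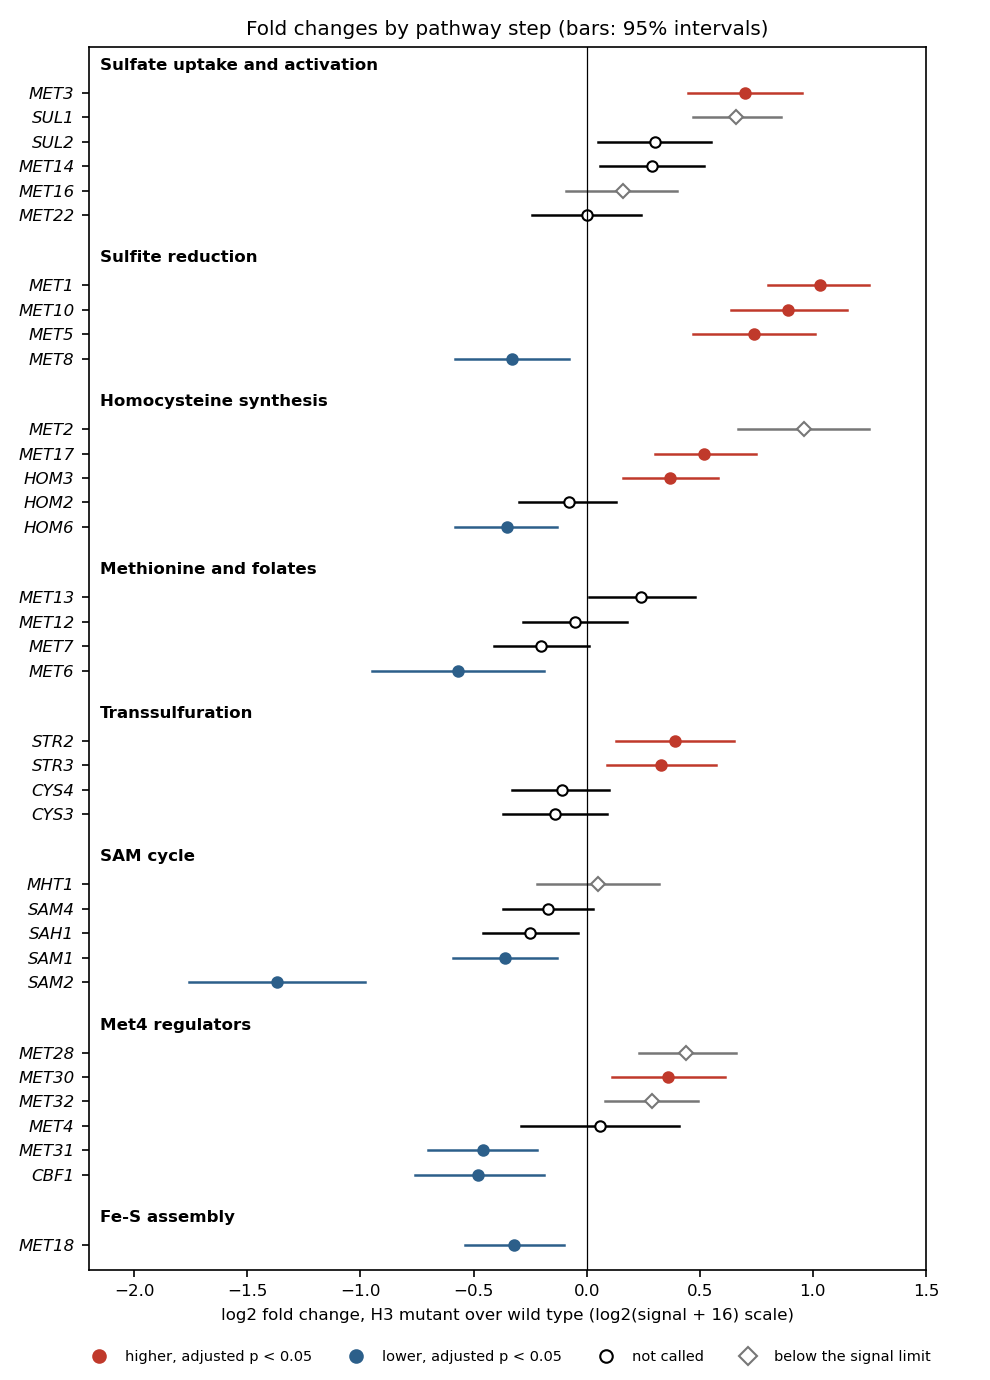
Log2 fold change of the 35 genes, H3 mutant over wild type, with 95% intervals from limma, by pathway step. Filled points passed (9 higher, 8 lower), open circles did not, and diamonds are the 6 members below the signal limit, from a fit with no filter.

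All tested genes were divided into 4 equal classes by mean signal. Of the 5 members in the dimmest class, from 25.1 to 49.9, 1 rose and 3 fell, against 14.2% and 12.2% of all genes in that class. Of the 8 members with signals between 49.9 and 92.2, 5 rose and 0 fell, against 16.8% and 15.2% of all genes in that class. Of the 6 members between 92.2 and 202, 1 rose and 2 fell, against 13.6% and 19.4%. Of the 10 members in the brightest class, above a signal of 202, 2 rose and 3 fell, against 12.7% and 15.2%. From the dimmest class to the brightest, the median log2 fold changes of all genes were -0.02, -0.03, -0.05 and -0.02.

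**Figure D3:**
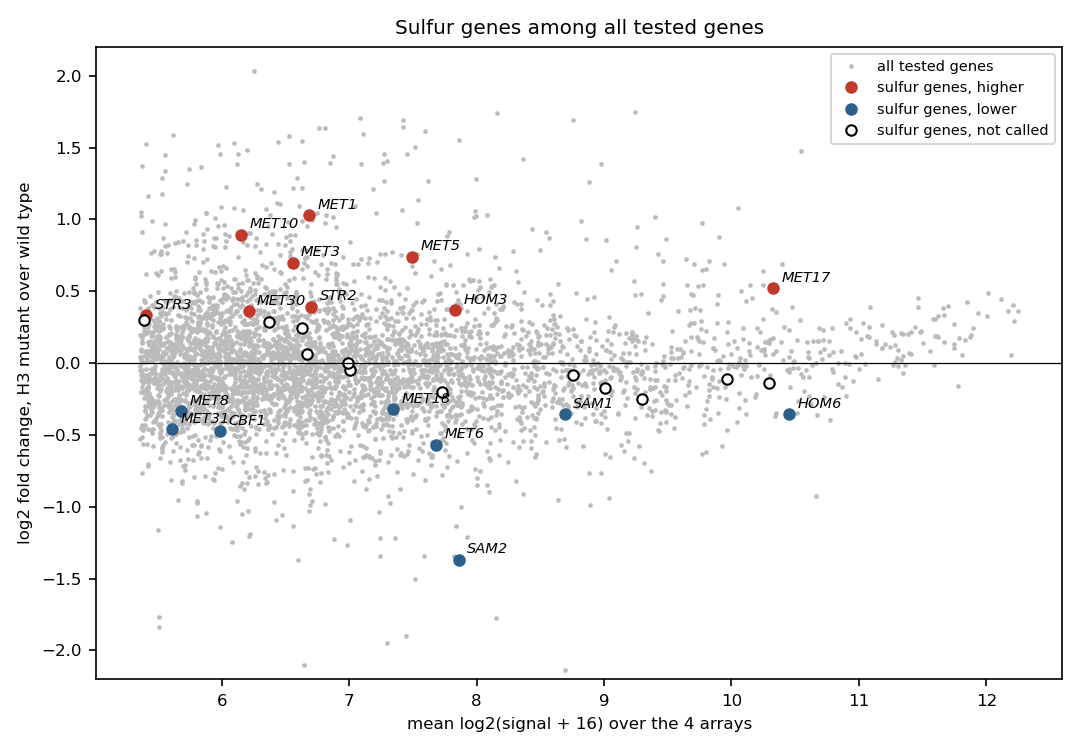
Log2 fold change against mean log2(signal + 16) for all 4476 tested genes (grey) with the 29 tested sulfur genes on top. MET1 and MET10 lie on the upper side and SAM2 on the lower side of the cloud, and 17 genes beyond a log2 fold change of 2.2 in size fall outside the axis.

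Neighbouring genes were taken from the gene order of the RefSeq annotation. Of 10 tested neighbours of the members that rose, 3 were called higher and 2 lower, against 14.3% and 15.5% of all tested genes. Of 11 tested neighbours of the members that fell, 2 were called higher and 0 lower. IML1, chosen after its values were seen, lies between MET5 and HOM6, so it is in both counts. IML1 rose by 0.59, while MET5 rose and HOM6 fell.

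Of the 17 calls, 5 of the 9 gains and 1 of the 8 losses held in every fit without 1 array. The share of all called genes that held in every such fit is not given here, so these counts have no background beside them. Without the stretch of probe sets in which the mutant arrays disagree, 24 members were tested, of which 8 rose and 6 fell. Of all genes tested in that fit, fewer than the 4476 of the main fit, 620 rose and 663 fell. The member calls absent from it were those of HOM3, MET6 and SAM2, whose probe sets lie in the stretch. All 8 losses and 8 of the 9 gains kept their sign under every alternative that gave them a value, and HOM3 was the exception.

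**Figure D4:**
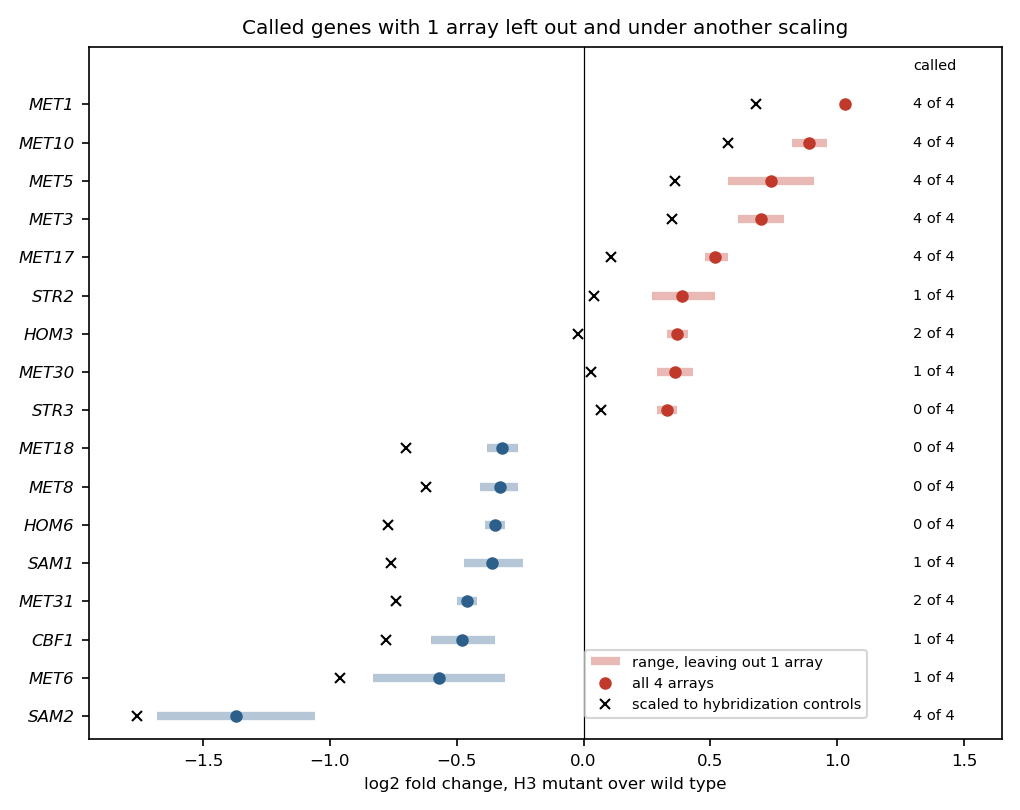
Log2 fold changes of the 17 called genes with all 4 arrays (points), their range when 1 array is left out (bands), and their value when arrays are scaled to the hybridization controls (crosses). The numbers at the right count the 4 left-out fits that still called the gene, which is 4 for MET1, MET10, MET5, MET3, MET17 and SAM2.

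Other genes of sulfur metabolism also moved both ways. Of 40 listed genes 38 were tested, of which 8 rose, 8 fell and 22 did not pass, against 14.3% higher and 15.5% lower over all tested genes, with a median of -0.03. Among 8 tested genes of uptake, efflux and use of outside sulfur sources 3 rose and 0 fell, beside the same 14.3% and 15.5%. YCT1, the high-affinity cysteine transporter gene, gave 73.9 and 63.3 in the mutant, against 25.7 and 24.2 in wild type. The wild-type mean of 24.95 lay just below the limit for testing, which YCT1 reached through its mutant arrays. YCT1 rose by 1.04 ± 0.113 (SE, limma adjusted p = 0.000258), a call that held in each fit without 1 array. SAM3, a SAM permease gene, rose by 0.43 (limma adjusted p = 0.0161) and MUP3, a low-affinity methionine permease gene, by 0.41 (limma adjusted p = 0.0265). Like the brightest MET18 probe set, that of SAM3 is of a design type that may also detect related transcripts. The SAM3 call was lost without mutant replicate 1 or wild-type replicate 2, and that of MUP3 without mutant replicate 1 or either wild-type replicate (adjusted p up to 0.0932 and 0.172). Scaling to the hybridization controls gave 0.03 for SAM3 and 0.10 for MUP3, neither called. MUP1, the high-affinity methionine permease gene, gave 352.8 and 312.7 in the mutant and 324.1 and 299.4 in wild type, with overlap. JLP1, a sulfonate dioxygenase gene, was below the limit, at 17.6 and 19.0 in the mutant and 7.3 and 4.4 in wild type.

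Genes that use SAM were divided. Of 6 tested methylation genes, ADO1 included, 2 rose and 3 fell, against 14.3% and 15.5% of all tested genes. The spermine synthase gene SPE4 (-0.21, limma adjusted p = 0.161) and the phosphatidylethanolamine methyltransferase gene CHO2 (0.19, limma adjusted p = 0.123) did not pass. In polyamine synthesis, SPE2, the SAM decarboxylase gene, gave 151.2 and 168.5 in the mutant and 262.0 and 256.6 in wild type, and fell by 0.65 (SE 0.0951, limma adjusted p = 0.00128). SPE3, the spermidine synthase gene, gave 118.5 and 105.0 in the mutant against 194.3 and 205.6 in wild type, and fell by 0.76 (95% interval -0.99 to -0.53, limma adjusted p = 0.000724). ERG6, the sterol methyltransferase gene, gave 664.7 and 708.3 in the mutant and 1108.5 and 1036.9 in wild type, and fell by 0.63 (SE 0.0966, limma adjusted p = 0.00161). OPI3, a phospholipid methyltransferase gene, gave 355.0 and 387.7 in the mutant, against 173.2 and 173.0 in wild type, and rose by 1.03 ± 0.0921 (SE, limma adjusted p = 8.13e-05). The groups did not overlap for any of these 4 genes. Both mutant arrays lay above both wild-type arrays for 33.0% of all genes and below for 33.2%. The calls of SPE2, SPE3, ERG6 and OPI3 held without each array. The arginine methyltransferase gene HMT1 fell by 0.37, a call lost without mutant replicate 2 or wild-type replicate 1 (adjusted p up to 0.115), and the ubiquinone methyltransferase gene COQ5 rose by 0.35. The COQ5 call was lost without either mutant replicate or wild-type replicate 1 (adjusted p up to 0.157) and with median centring, and its sign turned under scaling to the hybridization controls (-0.06). ADO1, the adenosine kinase gene that clears the other product of SAH1's reaction, fell by 0.36, a call no fit without 1 array kept (adjusted p from 0.0665 to 0.186).

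In methionine salvage, the route that recovers the sulfur left over from polyamine synthesis, ADI1 rose and MDE1 fell. MEU1, MRI1 and UTR4 did not pass. Taken with the polyamine genes, 1 of 8 tested genes rose and 3 fell, against 14.3% and 15.5% of all tested genes. ADI1, the acireductone dioxygenase gene, gave 311.6 and 287.9 in the mutant and 195.4 and 197.7 in wild type, and rose by 0.57 (limma adjusted p = 0.00210), or 0.18 and not called under scaling to the hybridization controls. MDE1, the dehydratase gene, fell by 0.33, a call no fit without 1 array kept (adjusted p from 0.0504 to 0.114). Of 7 glutathione genes 0 rose and 1 fell, against the same 14.3% and 15.5%. This was GSH2, the glutathione synthetase gene, which fell by 0.42. Its call was lost without mutant replicate 1 or wild-type replicate 1, or with quantile normalization. Of the 4 partners of Met30 in its ubiquitin ligase, CDC53, the cullin gene, gave 160.1 and 179.6 in the mutant against 115.3 and 114.3 in wild type and rose by 0.50 (limma adjusted p = 0.00567), or 0.13 and not called under scaling to the hybridization controls. CDC34, the ubiquitin-conjugating enzyme gene, gave 75.4 and 57.0 in the mutant and 114.7 and 125.6 in wild type and fell by 0.74 (limma adjusted p = 0.00306). Both probe sets lie in the stretch where the mutant arrays disagree, and both calls held without each array. SKP1 and HRT1 gave -0.03 and -0.06 and did not pass. AAT2, the cytosolic aspartate aminotransferase gene, rose by 0.38, a call that held in 1 of the 4 fits, the one without wild-type replicate 1 (adjusted p up to 0.166), was lost with median centring and was -0.04 under scaling to the hybridization controls.

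**Figure D5:**
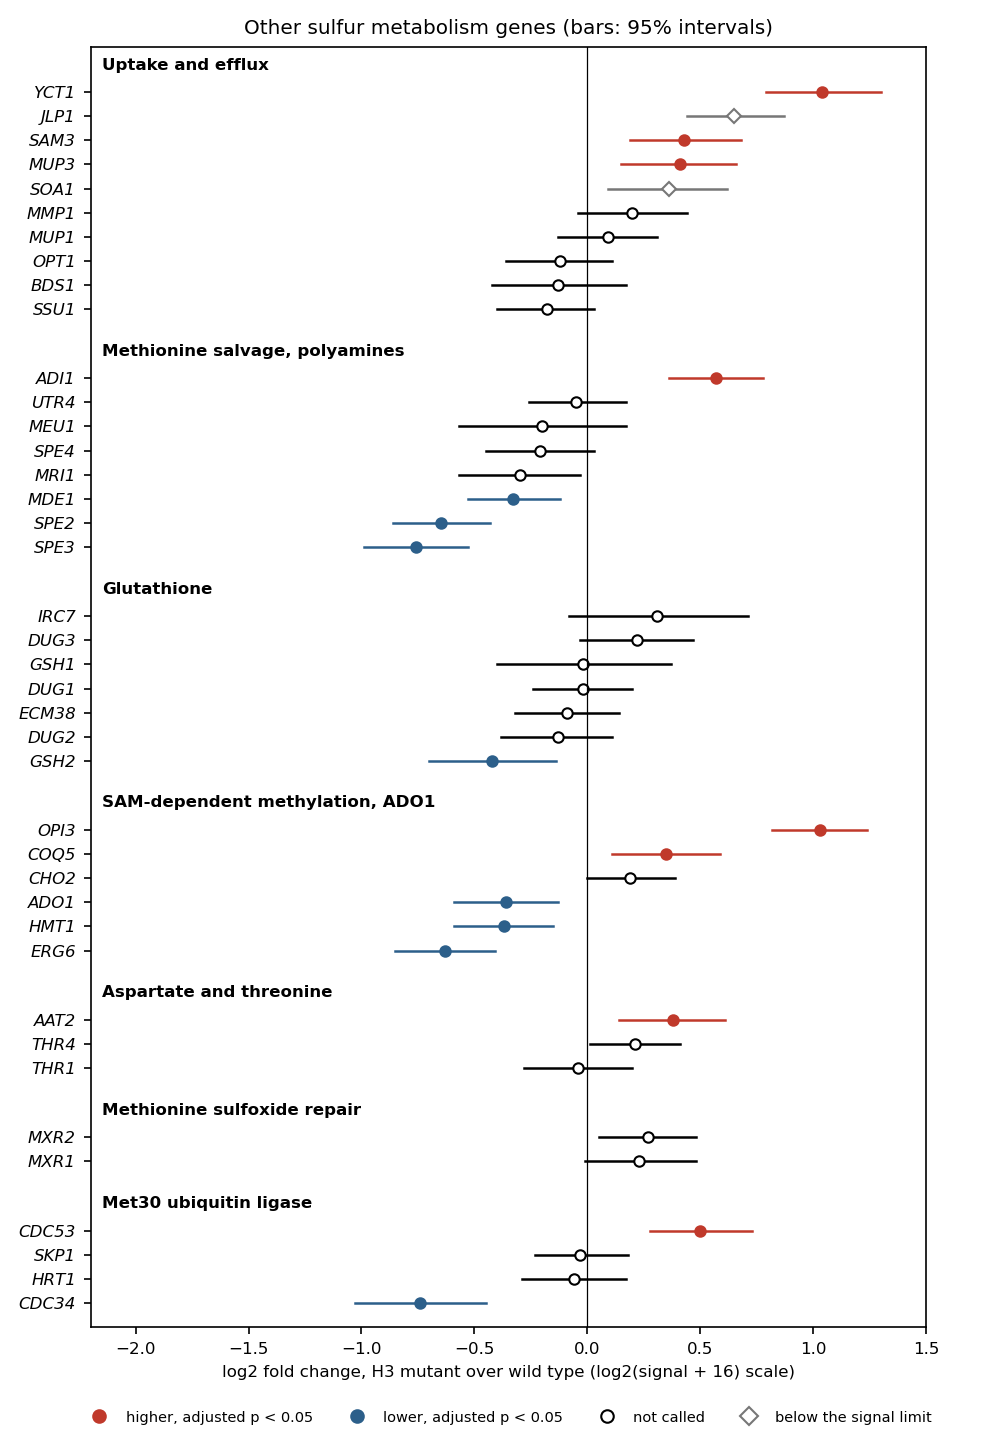
Log2 fold change of 40 other sulfur metabolism genes, H3 mutant over wild type, with 95% intervals, by function. YCT1 (1.04) and OPI3 (1.03) are the largest gains and SPE3 (-0.76) and CDC34 (-0.74) the largest losses of the 38 that were tested.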

How the data were processed

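Biotin-labelled cRNA from total RNA (per the labels' protocols) was hybridized to 4 arrays. The authors deposited signal intensity on a linear scale, and the submitters' processing notes name MAS5. The version and target of that scaling are not known here. The deposited intensity values had a trimmed mean of 125.1 on every array and were not normalized again. The platform annotation gave 1 gene for 6504 of 9335 probe sets, several for 328 and none for 2503. Each gene was read from its brightest probe set. No gene coordinates are printed, since the array's build is not named. RefSeq's gene order was used to find neighbouring genes.

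Log2(signal + 16) was fitted with limma 3.58.1 in R 4.3.3 (lmFit, eBayes with an intensity trend), with Benjamini-Hochberg adjustment. Probe sets under the 25th percentile (signal 25.1) were left out. Residual degrees of freedom were 2 and prior ones 7.03. The fit was checked on simulated data. Members that lie under the limit were read from a fit with no filter. Members and lists were chosen with earlier results of these data known. All 35 members are reported, and of 40 other sulfur genes the called ones and a few others. Alternatives changed the offset (1 or 64), scaling, filter, prior, threshold and probe set choice, added the replicate number as a block, or left out 1 array. The fit without the stretch of probe sets from 5600 and the fits that joined no filter to another change were added after seeing the data. Figures used matplotlib 3.10.9.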

Additional observations from a re-analysis of the deposited data

How the results depend on the processing

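Main counts were 9 members higher and 8 lower, 641 and 694 of all tested genes, and 8 and 8 of the other sulfur genes. Scaling to the hybridization controls gave 3 and 16 members, 205 and 2490 of all genes and 2 and 22 other sulfur genes, and moved the medians to -0.419 for members and -0.385 for all genes. Among listed genes called under either scaling, it also turned MET22 (-0.36), HOM3 (-0.0228), COQ5 (-0.0613) and AAT2 (-0.04) negative. MET22 was called lower there (limma adjusted p = 0.0427). Genes called under neither scaling changed sign as well, MET14 (-0.05), MET13 (-0.11) and MET4 (-0.29) among them. The cause was not tested. Quantile normalization left 5 members lower. The median over members was 0.0615 with no filter, where 13 rose and 7 fell, and 0.0320 without the stretch of probe sets in which the mutant arrays disagree. A filter at the median signal, which tests fewer genes, left 6 members higher, 5 lower and 425 of all genes higher. Requiring an adjusted p under 0.01 gave 5 and 1 members, 367 and 273 of all genes, and 4 and 4 other sulfur genes. Requiring a 1.5-fold change as well as an adjusted p under 0.05 gave 4 and 1, 274 and 205, and 2 and 4.

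Fits without 1 array called 5 to 7 members higher and 1 to 3 lower, 414 to 457 and 320 to 467 of all genes, and 5 to 6 and 4 to 7 other sulfur genes. The median over members ranged over those fits between -0.121 and 0.0183. These fits have 1 array in 1 strain, which is assumed to vary like the other strain. The changes of offset, median centring, intensity trend, robust prior and every probe set on its own kept the member counts at 8 or 9 higher and 7 or 8 lower.

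The replicate number was also fitted as a block, although the labels do not say that it pairs arrays (r = 0.13 between deviations of same-numbered arrays). The replicate block gave 11 members higher and 8 lower, 800 and 966 of all genes, and 9 and 9 other sulfur genes. Its medians were -0.05 for members and -0.03 for all genes. With 4 arrays, changes near the median SE of 0.109 were not resolved, and larger ones such as SUL2 (0.30) and MET14 (0.29) did not pass either.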
